A study of Rattus with 12 samples.

Results

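The 10 cytokine and colony-stimulating factor genes described here in thick ascending limbs of the rat renal medulla were Il6, Il1b, Il1a, Il18, Il34, Lif, Csf1, Csf2, Csf3 and Tnf. They were found by gene symbol in the authors' gene table, where each of the 10 had 1 row among 42915, and 7 of the 10 had been tested by the authors. The limbs, the nephron segment that takes up salt through the Na-K-2Cl cotransporter, had been picked by hand from digested inner stripe tissue of male rats, 7 weeks old and fed 0.4% NaCl. SS rats (SS/JrHsdMcwi, the Dahl salt-sensitive strain, which develops hypertension and kidney disease) supplied 6 libraries. SS.BN1 rats (SS-Chr 1BN/Mcwi, the same strain with chromosome 1 of the Brown Norway rat) supplied the other 6, and each library came from 1 animal without further treatment. None of the 10 genes lies on chromosome 1 in the files, so all of them sit on chromosomes that the strains share by design.

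Cytokines of this kind are secreted proteins through which injured epithelium, stromal cells and leukocytes signal to each other. Interleukins of the IL-1 group and Tnf start inflammatory responses, Il6 and Lif signal through the shared receptor subunit gp130 (Il6st), and the colony-stimulating factors govern the growth and survival of macrophages and granulocytes. Many of them have short-lived transcripts that are scarce in resting tissue and are induced within hours of a stimulus. In the kidney, tubule cells as well as resident macrophages are known sources.

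Levels are the authors' FPKM (fragments per kilobase of transcript per 1 M mapped fragments), which can be compared between genes because they are scaled to transcript length. The deposited tables hold 1 FPKM per strain, so no error between animals goes with a value, and q denotes their own p-value adjusted over the 13253 gene rows they tested. A gene is called here where q is under 0.05, and ratios are SS over SS.BN1 without a pseudocount. To what degree their test reflects variation between animals is not stated in the sources used here. The smallest p in the authors' test, 5e-05, was shared by 249 gene rows. The matching q of 0.00266 is therefore the smallest and does not rank those genes. Libraries held 47.7 to 57.7 M reads in SS and 42.3 to 59.8 M reads in SS.BN1, and the strain means did not differ beyond the spread (52.8 ± 3.69 M reads in SS against 52.0 ± 5.68 M reads in SS.BN1, SD, n = 6 each; exact permutation test, two-sided, p = 0.784). All 18 markers of the thick ascending limb were tested, and none was called or had an unadjusted p under 0.05 in the authors' test; Umod, the most abundant of them, stood at 10174 FPKM in SS against 8492 FPKM in SS.BN1.

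Of the 10 genes, 5 were called, all higher in SS: Il6, Lif, Il1b, Csf3 and Csf1. Folds ran from 2.66 for Csf1 to 21.2 for Il6, and SS levels of the 5 ran from 6.19 to 32.5 FPKM. Of the 13253 tested rows, 3.42% were called in either direction, 3.32% higher in SS and 0.0981% lower in SS. Among rows with a mean FPKM from 1 to under 5, where Il6 and Csf3 lie, 2.6% were called higher in SS, and among those from 5 to under 25, where Lif, Il1b and Csf1 lie, 3.13%. Il6, Csf3 and Il1a stood under 1 FPKM in SS.BN1 and entered the authors' test through their SS value, so the count of 5 is a description of the set. In these hand-picked preparations, more cells of a type that makes a cytokine and more RNA per cell cannot be told apart.

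**Figure D1:**
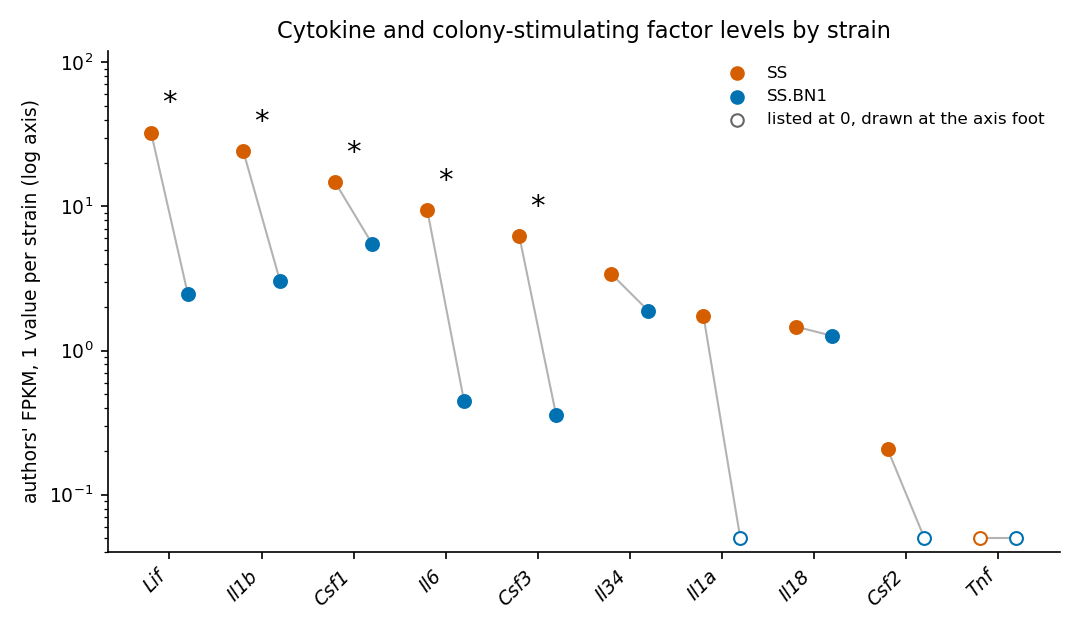
The authors' FPKM of the 10 genes on a log axis, 1 value per strain, with SS in orange to the left of SS.BN1 in blue, ordered by the SS level; stars mark genes with a q under 0.05 and open circles at the axis foot mark values listed at 0. The SS point lies above the SS.BN1 point for each gene but Tnf, and the steepest lines between 2 values above 0 are those of Il6 (9.42 FPKM in SS against 0.444 FPKM in SS.BN1) and Csf3 (6.19 FPKM in SS against 0.356 FPKM in SS.BN1).

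Lif and Il6 are the gp130 cytokines of the set. Lif, leukaemia inhibitory factor, was the most abundant of the 10 genes in SS, at 32.5 FPKM in SS against 2.45 FPKM in SS.BN1. The 13.3-fold difference had q = 0.00266 in the authors' deposited table, and it was the 12th largest of the 439 folds among rows called higher in SS. In SS the Lif level exceeded that of 82.5% of all tested rows, and in SS.BN1 that of 14.5%. Lif lies on chromosome 14 (84482674 to 84502279, as deposited).

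Il6, the acute-phase interleukin that signals through Il6r and gp130, had 9.42 FPKM in SS against 0.444 FPKM in SS.BN1 (chromosome 4, 3043231 to 3047807). Its 21.2-fold difference was the 2nd largest of the 439, with q = 0.00502 per the authors' deposited table. The SS value was mid-range, above 49.1% of tested rows, whereas the SS.BN1 value exceeded that of only 0.257%. A pseudocount of 1 brings the log2 ratio of Il6 to 2.85, against 4.41 without one.

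Il1b, the secreted interleukin whose precursor is cut by caspase-1, stood at 24.3 FPKM in SS against 3.05 FPKM in SS.BN1 (7.97-fold; chromosome 3, 121876263 to 121882726), with q = 0.00266 per the authors' deposited table. It lay above 76.4% of tested rows in SS and above 19.9% in SS.BN1. Il1a, which shares the receptor Il1r1 and acts largely from within or on the surface of the producing cell, lies 40176 bases away on the same chromosome (121825412 to 121836086). Il1a had 1.74 FPKM in SS, whereas its SS.BN1 value is listed at 0, and it missed the threshold (p = 0.0574, q = 0.722, per the authors' deposited table). It was 1 of only 2 rows tested among 4533 with a mean FPKM from 0.5 to under 1, and 1 of 3 tested rows listed at 0 in SS.BN1, so no fold is given. Among the 3 genes of the IL-1 group in the set, Il1b alone was called.

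Il18, the third of that group and another substrate of caspase-1, had 1.47 FPKM in SS against 1.26 FPKM in SS.BN1 and was not tested by the authors (chromosome 8, 54965583 to 55016299). At a mean of 1.37 FPKM it fell in a range, from 1 to under 2, in which 29.0% of 4048 rows were tested. Its locus overlaps rows for Bco2, Tex12 and an unnamed transcript. Il18 is therefore too low to compare.

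Csf1 and Il34 are the ligands of Csf1r, the receptor on which macrophages depend. Csf1, macrophage colony-stimulating factor, stood at 14.7 FPKM in SS against 5.52 FPKM in SS.BN1 (chromosome 2, 210522375 to 210550560). The 2.66-fold difference had q = 0.00266 in the authors' deposited table and ranked 214th of the 439, close to the median called fold of 2.61. Csf1 was the most abundant of the 10 genes in SS.BN1, where it made up 36.8% of their summed FPKM, against 15.6% in SS.

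Il34, the other ligand of Csf1r, had 3.39 FPKM in SS against 1.89 FPKM in SS.BN1 (chromosome 19, 40855433 to 40904121). The 1.80-fold difference had p = 0.0357 and q = 0.522 in the authors' deposited table, so Il34 was not called. The smallest fold called among rows with a mean FPKM from 2 to under 5 was 1.95, larger than that of Il34. Il34 missing the threshold does not show that its levels are alike.

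Csf3, granulocyte colony-stimulating factor, which drives neutrophil production, stood at 6.19 FPKM in SS against 0.356 FPKM in SS.BN1 (chromosome 10, 86616309 to 86619157). The 17.4-fold difference was the 4th largest of the 439, with q = 0.00266 per the authors' deposited table. A pseudocount of 1 gives it a log2 ratio of 2.41, against 4.12 without one. The nearest rows on either side of Csf3, those of the proteasome subunit gene Psmd3 (36.3 FPKM in SS, 30.8 in SS.BN1) and of Med24 (13.1 in SS, 13.4 in SS.BN1, in a row joined with a small RNA), were not called.

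Csf2, the granulocyte-macrophage factor, had 0.207 FPKM in SS, whereas its SS.BN1 value is listed at 0; Tnf is listed at 0 in both strains. Neither was tested, and none of the 7055 rows with a mean FPKM above 0 and under 0.5 was. Among all gene rows, 14807 are listed at 0 in both strains, among them Mif and Hspa1a, so a 0 is given here only as listed. Csf2, Tnf and Il18 are the 3 genes of the set too low to compare, and Il1a can be described in SS only.

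**Figure D2:**
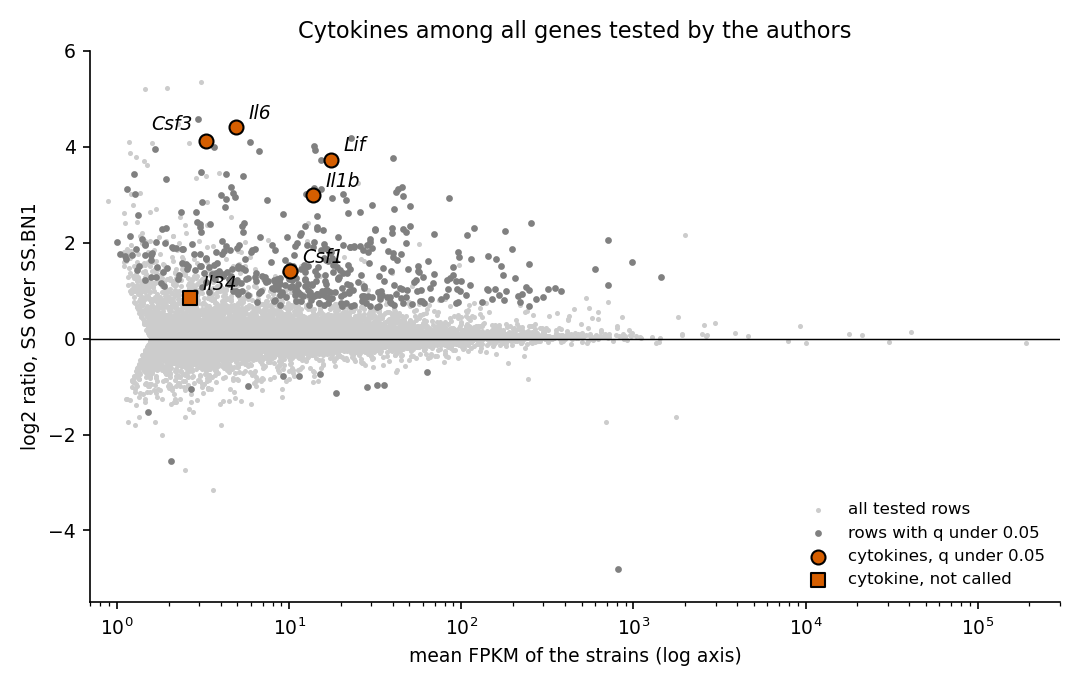
Log2 ratio of SS over SS.BN1 against the mean FPKM of the strains on a log axis, for every tested gene row with values above 0 in both strains (light grey), rows with a q under 0.05 (dark grey) and the 6 cytokine genes that have a ratio (orange; circles called, square not called). Il6, Csf3, Lif and Il1b lie near the upper edge of the called rows at 2.995 to 4.41, Csf1 lies among them at 1.41, and Il34 at 0.85 lies below the threshold.

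The order of levels differed between the strains. In SS it ran Lif, Il1b, Csf1, Il6, Csf3, Il34, Il1a, Il18 and Csf2. In SS.BN1 it ran Csf1, Il1b, Lif, Il34, Il18, Il6 and Csf3, with the other 3 at 0. Summed over the 10 genes the level was 93.9 FPKM in SS against 15.0 FPKM in SS.BN1, and Lif and Il1b together supplied most of the SS sum (34.6% and 25.9%). With 1 value per strain, no neighbours in these orders can be set apart by a test.

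The isoform table lists 20 transcripts of the 10 genes, 14 annotated in Ensembl and 6 assembled from the reads, of which 8 were tested and 3 called, each higher in SS. Over all isoforms, 1.05% of 23688 tested were called. Gene values equalled the summed isoform values to within 4e-05 FPKM, so the isoforms are a breakdown and no separate evidence. Il6 (ENSRNOT00000013732; q = 0.0132, per the authors' deposited table) and Il1b (ENSRNOT00000006308; q = 0.00718 there) each had a single transcript, and both were called. Il34, Csf2 and Tnf also had 1 transcript each, none of them called.

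Lif was split between its annotated transcript ENSRNOT00000009313 (13.8 FPKM in SS, 1.02 in SS.BN1) and an assembled one (18.7 in SS, 1.44 in SS.BN1). Shares were nearly the same in the strains, with the annotated transcript at 42.6% of the gene in SS and 41.5% in SS.BN1. Their folds were also close, 13.6 and 13.0, yet in the authors' deposited table the assembled transcript was called (q = 0.00718) and the annotated one was not (p = 0.0489, q = 0.999).

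Csf1, called as a gene, had no called transcript. Its annotated transcript ENSRNOT00000025222 had 6.36 FPKM in SS against 3.10 FPKM in SS.BN1, 43.4% of the gene in SS and 56.2% in SS.BN1. An assembled transcript had 6.94 FPKM in SS against 2.21 FPKM in SS.BN1 (47.3% of the gene in SS, 40.0% in SS.BN1). The annotated one had p = 0.00675 (q = 0.333) and the assembled one p = 0.00345 (q = 0.207), per the authors' deposited table. A further annotated transcript, ENSRNOT00000081835, had 1.35 FPKM in SS against 0.205 FPKM in SS.BN1 and was not tested. The share differences have no error and were not tested.

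Csf3 was spread over 1 annotated and 3 assembled transcripts. The annotated one, ENSRNOT00000011509, carried 4.24 FPKM in SS against 0.185 FPKM in SS.BN1 and missed the isoform threshold (p = 0.00935, q = 0.425, per the authors' deposited table). The others ranged from 0.441 to 1.04 FPKM in SS and from 0.0205 to 0.0977 FPKM in SS.BN1, and all were higher in SS. Il1a had 3 annotated transcripts, of which ENSRNOT00000006113 held 80.8% of the gene's FPKM in SS. Both transcripts of Il18 were below 1 FPKM, and neither was tested: the annotated one had 0.755 FPKM in SS against 0.965 FPKM in SS.BN1, and the assembled one 0.712 FPKM in SS against 0.299 FPKM in SS.BN1.

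**Figure D3:**
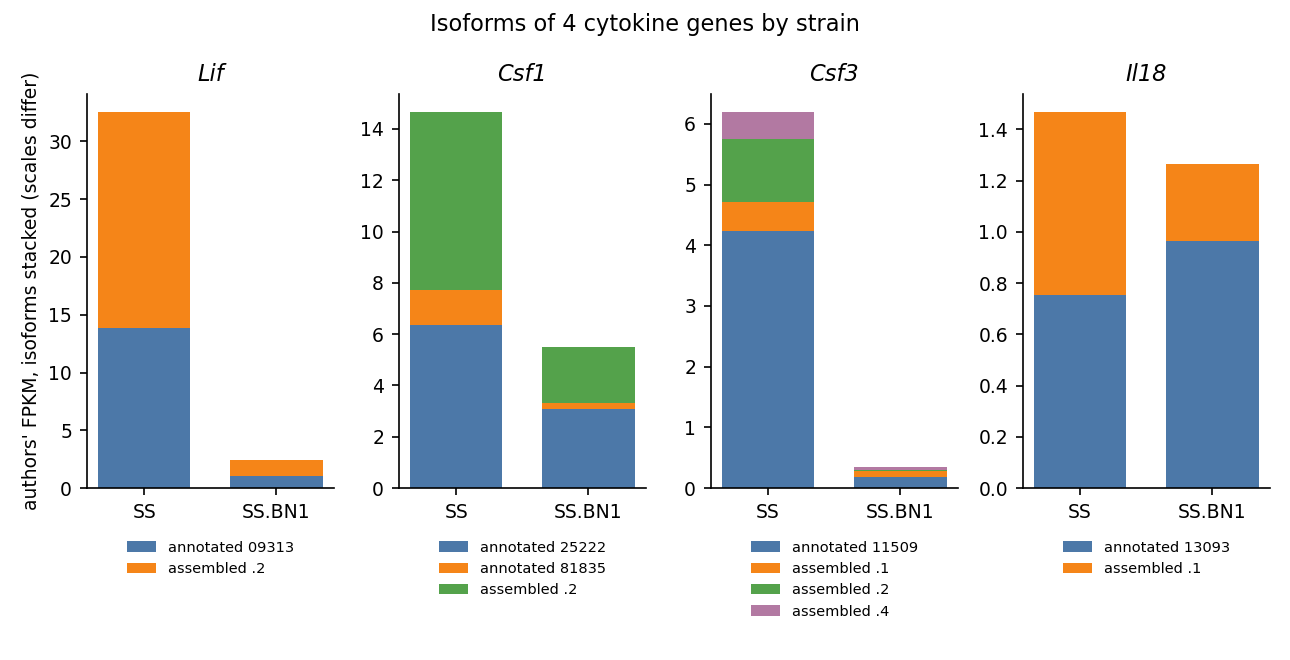
The authors' FPKM of each transcript, stacked to the gene's level, for Lif, Csf1, Csf3 and Il18 in SS (left bar) and SS.BN1 (right bar), with a separate linear scale for each gene and transcripts labelled by the end of their identifier. The Lif bar in SS is split at 42.6% between the annotated and the assembled transcript and the SS.BN1 bar at 41.5%, while Il18 stays below 1.5 FPKM in both strains.

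The receptors of these cytokines were measured in the same rows. Of 14 receptor genes, none on chromosome 1, 10 were tested and 2 were called, both higher in SS, beside 3.32% of all tested rows. The higher value was in SS for 8 of the 10, and for 6662 of 13253 over all tested rows. An unadjusted p under 0.05, which 7.55% of all tested rows had, was found for 6 of the 10, namely Tnfrsf1a, Csf2rb, Tnfrsf1b, Il1r1 and Il6st, with the higher value in SS, and Csf1r, with the lower value in SS. The median log2 ratio of the 10 was 0.54, beside 0.00 over all tested rows. The receptors were chosen with earlier results of these data known, so these counts only describe the list. Tnfrsf1a, the main signalling receptor of Tnf, stood at 31.6 FPKM in SS against 15.6 FPKM in SS.BN1 (q = 0.00502, per the authors' deposited table). Csf2rb, the beta chain shared by the receptors of Csf2 and related cytokines, had 3.25 FPKM in SS against 1.30 FPKM in SS.BN1 (q = 0.0233, per the authors' deposited table). The ligands of both, Tnf and Csf2, were the cytokine genes at or near 0.

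The other tested receptor subunits were not called. Lifr had 54.9 FPKM in SS against 43.8 FPKM in SS.BN1, and gp130 (Il6st) 34.2 FPKM in SS against 24.3 FPKM in SS.BN1 (p = 0.0272, q = 0.425, per the authors' deposited table). Il6r, the subunit that binds Il6, was scarce at 1.64 FPKM in SS against 1.10 FPKM in SS.BN1. The signalling receptor Il1r1 stood at 1.81 FPKM in SS against 0.794 in SS.BN1 (q = 0.232, per the authors' deposited table), while its partner Il1rap had 5.75 FPKM in SS against 5.50 FPKM in SS.BN1. Tnfrsf1b, the other Tnf receptor, had 2.88 FPKM in SS against 1.20 FPKM in SS.BN1, with q = 0.0757 per the authors' deposited table. Csf2ra, in a row joined with Ppp2r3b, had 5.75 FPKM in SS against 6.31 FPKM in SS.BN1.

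Csf1r, a macrophage receptor, had the lower value in SS, 7.89 FPKM against 13.5 FPKM in SS.BN1 (p = 0.00475, q = 0.113, per the authors' deposited table), the opposite direction to its ligand Csf1. The remaining 4 receptors were not tested and stayed under 0.5 FPKM in both strains. They were the neutrophil receptor Csf3r (0.204 in SS, 0.260 in SS.BN1), the decoy receptor Il1r2 (0.477 in SS, 0.0331 in SS.BN1) and both chains of the Il18 receptor, Il18r1 (0.316 in SS, 0.420 in SS.BN1) and Il18rap (0.233 in SS, 0.347 in SS.BN1).

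**Figure D4:**
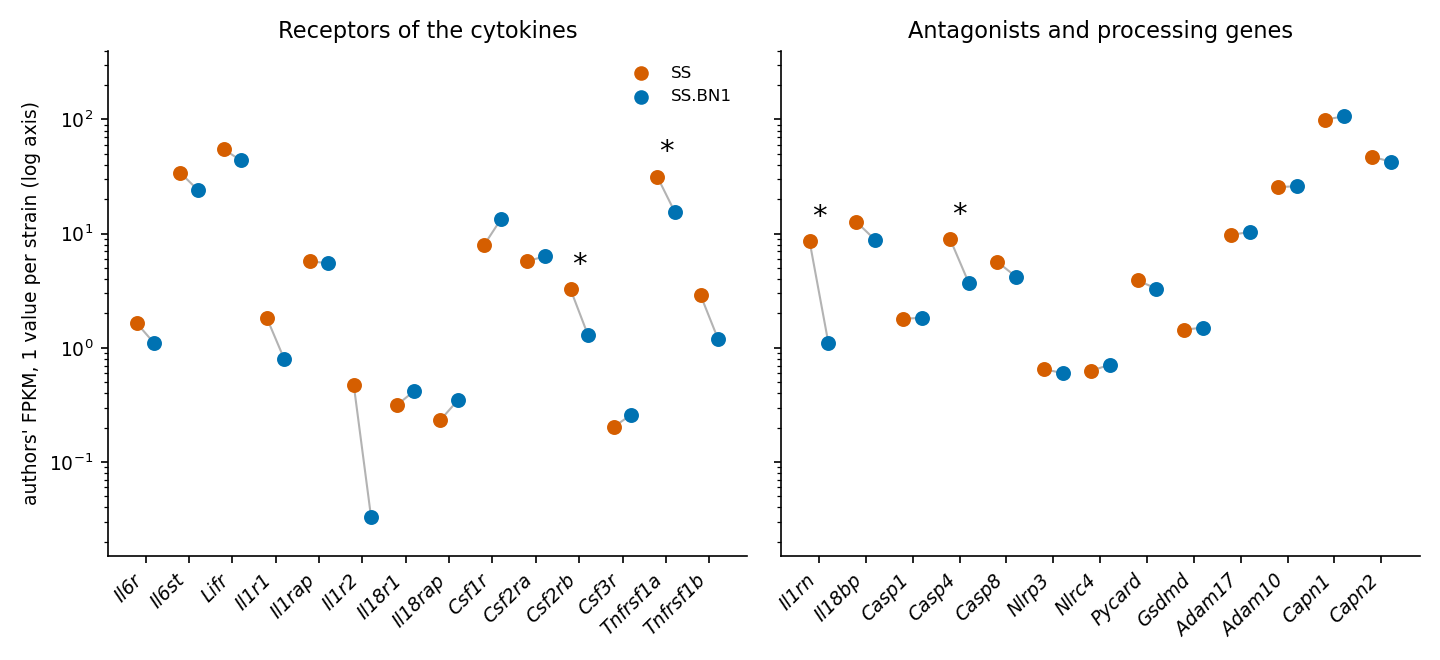
The authors' FPKM on a log axis for 14 receptor genes (left panel) and 13 antagonist and processing genes (right panel), SS in orange to the left of SS.BN1 in blue, with stars at a q under 0.05. Il1rn shows the largest called step, 8.56 FPKM in SS against 1.11 FPKM in SS.BN1, and the 2 points of the protease gene Capn1 lie close together (99.6 FPKM in SS against 106.7 FPKM in SS.BN1).

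Genes that restrain the cytokines or cut their precursors were called for 2 of 10 tested (13 listed, 3 of them on chromosome 1). Both were higher in SS, as were 3.32% of all tested rows. The higher value was in SS for 6 of the 10, near the 6662 of 13253 over all tested rows. Their median log2 ratio was 0.19, and 2 had an unadjusted p under 0.05 in the authors' test, beside 7.55% of all tested rows. Il1rn, the antagonist that occupies Il1r1 without signalling, stood at 8.56 FPKM in SS against 1.11 FPKM in SS.BN1 (7.71-fold, q = 0.00266, per the authors' deposited table). Casp4, known from mouse as the caspase of the noncanonical inflammasome, had 8.93 FPKM in SS against 3.68 FPKM in SS.BN1 (q = 0.0382, per the authors' deposited table).

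The machinery that matures Il1b and Il18 was low. Casp1 had 1.80 FPKM in SS against 1.83 FPKM in SS.BN1, and the adaptor Pycard 3.90 FPKM in SS against 3.30 FPKM in SS.BN1. The sensors Nlrp3 (0.651 in SS, 0.600 in SS.BN1) and Nlrc4 (0.629 in SS, 0.710 in SS.BN1) and the pore protein gene Gsdmd (log2 ratio -0.06) were not tested. Casp8 stood at 5.69 FPKM in SS against 4.21 FPKM in SS.BN1. Il18bp, which neutralises Il18, had 12.7 FPKM in SS against 8.82 FPKM in SS.BN1 in a row joined with Rnf121.

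Adam17, which sheds Tnf and several of the receptors, had 9.76 FPKM in SS against 10.4 FPKM in SS.BN1, and its relative Adam10 had 25.6 FPKM in SS against 26.1 FPKM in SS.BN1. The calpains Capn1 and Capn2, a class of protease that can cut the Il1a precursor, stood at 99.6 and 47.2 FPKM in SS and at 106.7 and 42.8 FPKM in SS.BN1. None of these proteases was called.

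Few other cytokine genes were high enough to be tested. Of 56 listed, 55 were found, 17 were tested and 2 were called, both higher in SS, beside 3.32% of all tested rows. Of the 55 found, 8 lie on chromosome 1. The higher value was in SS for 9 of 17, close to the 6662 of 13253 over all tested rows. An unadjusted p under 0.05 in the authors' test was found for 5 of the 17, beside 7.55% of all tested rows. The median log2 ratio of 0.02 is that of the Flt3lg row, which is joined with the ribosomal protein gene Rpl13a (341 FPKM in SS, 335 in SS.BN1). Cntf lies on chromosome 1 in a row joined with Zfp91. Il23a, the subunit particular to interleukin-23, had 7.88 FPKM in SS against 0.728 FPKM in SS.BN1 (10.8-fold, q = 0.00266, per the authors' deposited table). With an SS.BN1 value under 1 FPKM, Il23a entered the authors' test through its SS value, and its fold is uncertain. Its partner subunit Il12b was listed at 0 in both strains. Il33, an alarmin of the IL-1 family whose gene lies on chromosome 1, had 5.68 FPKM in SS against 2.18 FPKM in SS.BN1 (q = 0.0140, per the authors' deposited table).

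Relatives of Lif and Il6 were not called, and of those given here Clcf1, Ctf1 and Il11 lie on chromosome 1. Clcf1 had 6.87 FPKM in SS against 3.16 FPKM in SS.BN1 with p = 0.348 in the authors' deposited table, and Ctf1 had 20.7 FPKM in SS against 26.3 FPKM in SS.BN1. Osm, which lies 12264 bases from Lif, had 0.450 FPKM in SS against 0.166 FPKM in SS.BN1, and Il11 had 0.519 FPKM in SS against 0.131 FPKM in SS.BN1; neither was tested. Il19 and Il24, of the IL-10 family, had 4.92 and 2.23 FPKM in SS against 0.291 and 0.151 FPKM in SS.BN1. These 2 log2 ratios, 4.08 and 3.88, are as large as those of called genes, but q was 0.110 and 0.232 in the authors' deposited table. Both genes stood under 1 FPKM in SS.BN1 and entered the authors' test through their SS values, so the ratios are uncertain. The list includes 18 genes at 0 in both strains.

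**Figure D5:**
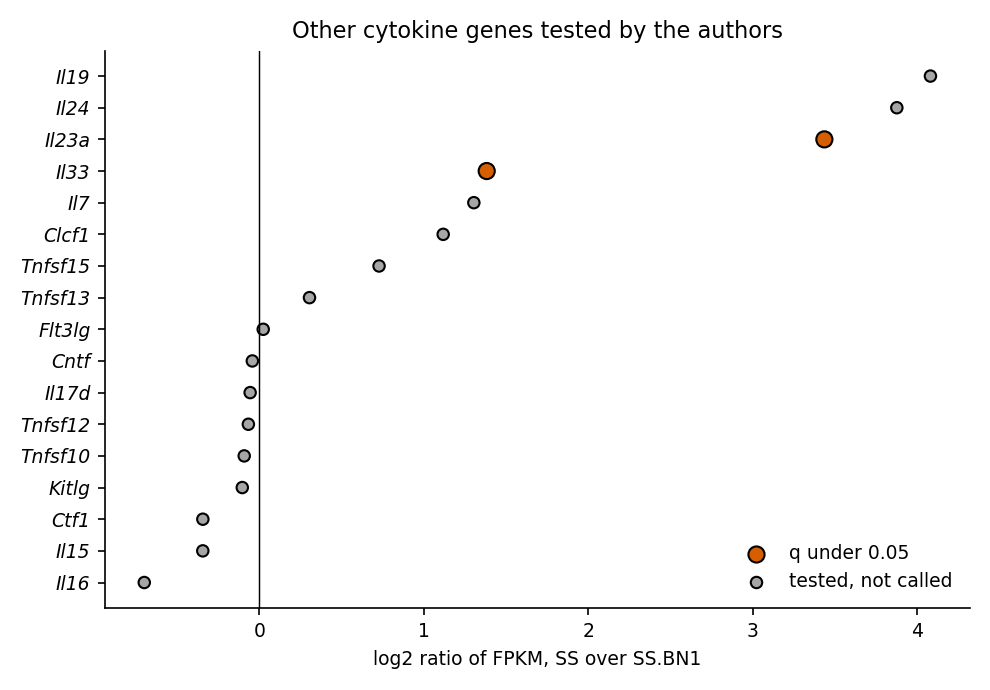
Log2 ratio of FPKM, SS over SS.BN1, for the 17 tested genes of the list of other cytokines, ordered by ratio, with called genes in orange. Il23a (3.44) and Il33 (1.38) are the called ones, and Il19 and Il24 lie further right without a call. The median, 0.02, is that of the Flt3lg row, which is joined with Rpl13a. Il23a, Il19 and Il24 were under 1 FPKM in SS.BN1.

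Several cell types could supply these transcripts, and their markers were read in the same table. Of 28 macrophage and leukocyte markers 17 were tested, and 3 of the 17 had the higher value in SS, with a median log2 ratio of -0.36 (3 with an unadjusted p under 0.05). Their summed level was 578 FPKM in SS against 629 FPKM in SS.BN1, and Cd74, the most abundant, had 358 FPKM in SS against 349 FPKM in SS.BN1. One was called higher in SS, Cd14 (7.46 FPKM in SS, 2.63 in SS.BN1; q = 0.0221, per the authors' deposited table), and 1 lower, Ctss (11.6 in SS, 25.6 in SS.BN1; q = 0.00705 there). The neutrophil genes S100a8 (0.249 FPKM in SS, 0.375 in SS.BN1) and S100a9 (0.539 in SS, 0.139 in SS.BN1) were near 0, and Cd163 was listed at 0 in SS. Over all tested rows, 3.32% were called higher in SS and 0.0981% lower, and 7.55% had an unadjusted p under 0.05 in the authors' test. The higher value was in SS for 6662 of those 13253 rows. The part of macrophages and leukocytes in the cytokine differences was not tested.

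Proximal tubule markers were higher in SS. Of 22, 19 were tested, all 19 stood higher in SS and 10 were called (median log2 ratio 1.23; 14 with an unadjusted p under 0.05), and their summed level was 926 FPKM in SS against 481 FPKM in SS.BN1. Those called were Slc34a1, Lrp2, Cubn, Slc22a12, Slc7a13, Aqp1, Kap, the Miox row, Pck1 and Anpep. Of the 22, 5 lie on chromosome 1, among them the called Slc22a12 and Anpep. Kap, the most abundant in SS, had 290.3 FPKM in SS against 120.5 FPKM in SS.BN1. Immediate early and stress genes also stood higher in SS, with 21 of 23 tested called higher there (26 listed, 25 found, median log2 ratio 1.02). Their summed level was 4144 FPKM in SS against 1815 FPKM in SS.BN1. Over all tested rows, 3.32% were called higher in SS and 7.55% had an unadjusted p under 0.05 in the authors' test. Both lists, like every other list described here, were chosen with earlier results of these data known, so all such counts only describe the lists. The part of either list in the cytokine differences was not tested.

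Of 12 endothelial markers 11 were found and tested; 4 had the higher value in SS and 1 was called, Tek, lower in SS (6.78 FPKM in SS, 11.6 in SS.BN1; q = 0.0221, per the authors' deposited table). Those with an unadjusted p under 0.05 were 4, Tek, Plvap, Emcn and Eng, each with the lower value in SS. Over all tested rows, 0.0981% were called lower in SS and 7.55% had an unadjusted p under 0.05 in the authors' test. The higher value was in SS for 6662 of those 13253 rows. The median log2 ratio of the endothelial list was -0.20. The summed level was 173 FPKM in SS against 218 FPKM in SS.BN1. Esam was the most abundant in SS (48.7 FPKM in SS, 43.4 in SS.BN1) and Plvap in SS.BN1 (32.0 FPKM in SS, 51.8 in SS.BN1). Fibroblast and mural cell markers had no call among 7 in the authors' test, whose output has the format of Cuffdiff (1 with an unadjusted p under 0.05; median log2 ratio 0.05), and the highest row, which joins Col3a1 with another name, stood at 20.5 FPKM in SS against 14.6 FPKM in SS.BN1. The median log2 ratio of the thick ascending limb markers was 0.06.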

How the data were processed

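Total RNA of each animal was made into a stranded library and sequenced in pairs, per the labels' protocols. TopHat2 2.1.1, Cufflinks 2.2.1, StringTie, cutadapt and FastQC appear, with the build rn5, in the submitters' processing notes, which do not say what each did. Columns and status words are those of Cuffdiff, per the file headers. The deposited FPKM are the authors', 1 per strain and row, and the way 6 libraries became 1 value is not stated in the sources used here. The deposited p-values and q-values are the authors' too, and Benjamini-Hochberg adjustment over 13253 rows gave their q to within 5.27e-07. Read counts per library and mate are the authors', per the file headers.

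Coordinates are as deposited with 1 added to the start, since 26 of 31 rows on the mitochondrial chromosome start where another ends. Their build is not settled, because 6832 rows carry contig names (AABR07) of a later assembly than rn5.

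Genes, receptors, antagonists, other cytokines, immediate early genes and markers of thick ascending limb, proximal tubule, leukocytes, endothelium and fibroblasts were chosen with earlier results of these data known. A listed symbol found in several rows took its most abundant tested row. All 10 cytokines, the receptors, antagonists and processing genes above 1 FPKM, every called gene of the list of other cytokines and of the marker lists, and each marker list's most abundant gene are named; others were named after their values were seen. Planned per-gene tests on libraries were not possible, so calls are the authors' q under 0.05. Sequences were not used here. The adjustment was tested on simulated p-values. Alternatives were q under 0.01, mean FPKM of at least 1 or 5, a fold of at least 1.5, rows with several names left out, pseudocounts of 1 and 0.1, median centring, scaling without mitochondrial rows, and summed isoforms. Values were computed with pandas 2.3.3 and NumPy 2.4.6 under Python 3.11.15 and drawn with matplotlib 3.10.9.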

Additional observations from a re-analysis of the deposited data

How the results depend on the processing

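The call of 5 genes (Csf1, Csf3, Il1b, Il6 and Lif) was the same set at q under 0.01, and with a mean FPKM of at least 1 and adjustment again. Neither setting is a test of the call. The largest q of the 5 was 0.00502, and the minimum of 1 left out only the 2 tested rows with a mean FPKM from 0.5 to under 1. The set was also the same without rows that join several names. A fold of at least 1.5 could drop none of the 5, because their smallest fold was 2.66. With a mean FPKM of at least 5 it was 3 (Csf1, Il1b and Lif), because Il6 and Csf3 fall below that level and leave the test. The log2 ratios of the called genes stayed positive under both pseudocounts, median centring, scaling without mitochondrial rows and summed isoforms. Their sign could not have changed, so this is no test of it. A pseudocount cannot change a sign, median centring shifted ratios by 0.00113, and summed isoforms repeat the gene values. The lowest log2 ratio was 1.26, for Csf1 with a pseudocount of 1, against 1.41 without one. Scaling without mitochondrial rows, whose share of the summed FPKM was 44.3% in SS against 46.9% in SS.BN1, moved every log2 ratio by -0.11. Of the 3 called isoforms, 2 remained at q under 0.01 (Il1b and Lif). The difference in mean read totals, 0.769 M reads, ranged from -1.18 to 2.32 M reads when each library was left out. It turned below 0 without SS replicate 5 (-0.216) and without SS.BN1 replicate 5 (-1.18), with exact permutation p from 0.411 to 0.989. No paired analysis was possible because the expression tables hold 1 value per strain; for the same reason no animal could be left out of the FPKM. Low levels limit Il1a, Il18, Csf2 and Tnf, and the SS.BN1 values of Il6 and Csf3 are close to 0, so their folds are uncertain.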

Other observations

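Within each strain, the level of the antagonist Il1rn over that of Il1b was 0.352 in SS and 0.364 in SS.BN1, the genes' folds being 7.71 and 7.97. The level of Csf1 over that of its receptor gene Csf1r was 1.86 in SS and 0.409 in SS.BN1. Il1b over Il1r1 was 13.4 in SS and 3.84 in SS.BN1, and Lif over Lifr was 0.592 in SS and 0.0560 in SS.BN1. These ratios of FPKM were chosen after their values were seen, carry no error and were not tested.

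Rows without a gene name lay over, or were the nearest row on 1 side of, 4 of the genes, 2 with the higher value in SS and 2 with the lower. For Il34 the row of Mtss1l, 347 bases after it, lay closer. A row that ends 194 bases before Il1a had 3.79 FPKM in SS and 0.101 FPKM in SS.BN1 (q = 0.187, per the authors' deposited table), a higher level than Il1a itself. Another, 1970 bases before Csf1, had 0.559 FPKM in SS and 0.0689 FPKM in SS.BN1 and was not tested. The row that overlaps Il18 had 0.317 FPKM in SS and 0.740 FPKM in SS.BN1, and one 396028 bases before Il34 had 0.599 FPKM in SS and 1.10 FPKM in SS.BN1; neither was tested. Whether any of the 4 belongs to the gene beside it was not tested.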
